A study of Sus scrofa with 48 samples.

Results

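Gluteus medius (GM) and kidney were compared within the same 16 F2 pigs. All 16 GM arrays and all 16 kidney arrays of the series were used, 32 of its 48 arrays, and the 2 arrays of a pig were paired by the pig number in their labels; no measured value entered this choice. GM is a hip muscle of striated fibres, in which myosin and actin filaments slide under the control of calcium and which draws its energy from glycogen, creatine phosphate and mitochondrial oxidation. Kidney is an epithelial organ whose nephron filters plasma in the glomerulus, recovers most solutes in the proximal tubule, dilutes the fluid in the thick ascending limb and adjusts it in the distal tubule and collecting duct. It also makes glucose from amino acids, activates vitamin D and secretes erythropoietin.

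The pigs were Swiss Large White offspring of the third generation of a feeding experiment, which asks whether a diet given to grandsires alters gene expression in their descendants. 8 pigs (F2 E) descended from F0 boars whose standard diet had been supplemented with methionine, choline, betaine, folate and vitamins B6 and B12, and 8 pigs (F2 C) from F0 boars on the standard diet alone. The F2 pigs themselves received a standard diet, were slaughtered after feed withdrawal, and comprised 4 castrated males (barrows) and 4 females in each line. Both lines and both sexes stood on each side of the comparison, since every pig gave a sample of GM and of kidney. The labels give no region of the muscle or depth of the kidney for the samples.

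RNA was labelled with 1 dye and hybridised to an Agilent porcine array with 43803 spots of 43603 different probes. The number of spots well above background ran from 18948 to 28754 (median 24443.5) over the GM arrays and from 25071 to 36804 (median 32138.5) over the kidney arrays, and 0 spots were saturated. GM arrays lay on 4 slides and kidney arrays on 4 others, with no slide and no scan day shared, so that tissue and slide cannot be told apart. The kidney arrays of 2 F2 E pigs, a barrow and a female, had the lowest median signals (48 in each) and 25071 and 27156 spots well above background, and stood apart from the other kidney arrays. 2628 probes carried a gene symbol through their RefSeq accession, so the genes named below are a minority of what was measured.

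Of 32689 probes tested, 5530 (16.9%) were called higher in GM and 6204 (19%) higher in kidney, at a Benjamini-Hochberg adjusted p below 0.05 in limma and a difference of at least 2-fold. The median difference over all probes was -0.07 on the log2 scale, on which every difference below is given as GM minus kidney. For 4211 probes (12.9%) all 16 GM arrays lay above all 16 kidney arrays, and for 4457 (13.6%) the reverse held. A difference of at least 16-fold was called for 544 probes in GM and for 594 in kidney. GM had 23973 probes present and kidney 32246, with 443 present in GM alone and 8716 in kidney alone. The median signal of an array before normalization was also lower in GM (median 69.5) than in kidney (147.5), with a median background of 25 and 21. The part of this signal strength in the numbers of probes present was not tested. Among the 1653 named genes tested, 404 were called higher in GM, 360 higher in kidney and 889 in neither direction. The balance of the directions changed with the scaling and with the filter on presence. GM made up 47.1% of the calls after quantile normalization. It made up 65.5% when the same median signals were scaled to their 75th percentile, which moved the median of all probes to 0.47, and 49.9% when the processed signals were scaled that way (median -0.0052). Among probes well above background on all 32 arrays the direction turned, with 3923 higher in GM and 3164 higher in kidney (55.4% GM). A level on these arrays is RNA per total RNA, and fewer cells of a type cannot be told apart from less RNA per cell.

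The labelled tissues were checked against their defining genes. Of 7 muscle markers 6 could be tested, and all 6 (MYH1, MYH2, MYH7, TNNT3, CKM and MYLPF) were higher in GM without overlap between tissues. Of 7 kidney markers 2 could be tested, SLC12A1 and SLC34A1, and both were higher in kidney without overlap. Of all probes 12.9% lay higher in GM and 13.6% higher in kidney without overlap. UMOD, AQP2, LRP2, CUBN and ACTA1 were among the markers with no named probe tested.

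**Figure D1:**
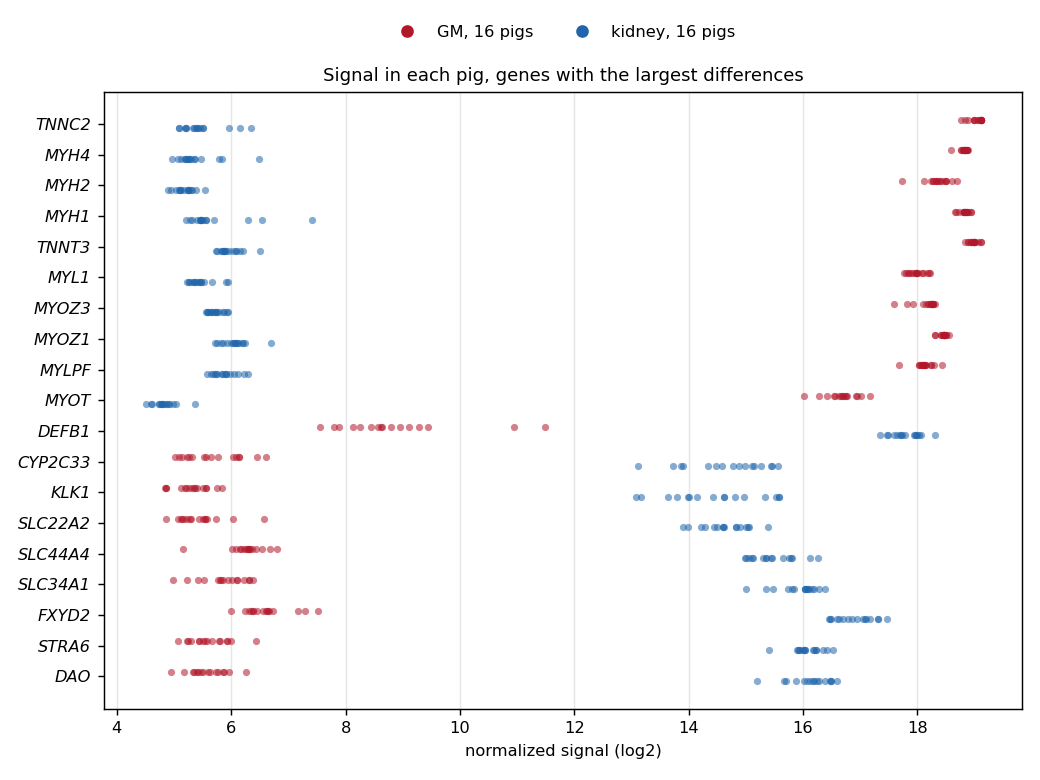
Normalized log2 signal (x axis) of 19 genes among those with the largest differences, 10 higher in GM and 9 higher in kidney, in each of the 16 pigs; red points are GM and blue points kidney. Levels can be compared between tissues within a gene, not between genes. In all 19 genes the 16 points of one tissue lie apart from the 16 of the other. The lower tissue is at or near background in several of them, with TNNC2 well above background on 3 kidney arrays and DAO on 0 GM arrays.

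The contractile apparatus carried the largest differences in favour of GM. All 29 tested genes of the sarcomere, the repeating contractile unit of striated muscle, were called higher in GM, against 16.9% of all probes. None of them overlapped between tissues, whereas 12.9% of all probes lay higher in GM without overlap. The median difference of the list was 8.91. TNNC2, the calcium-binding troponin of fast fibres, ran from 18.76 to 19.11 (median 19.08) on the log2 scale over the GM arrays and from 5.08 to 6.34 (median 5.39) over the kidney arrays. Its difference was 13.55 ± 0.10 (SE, 16 pairs; limma adjusted p = 6.6e-28). The fast myosin heavy chains differed by a like amount, MYH4 by 13.43 ± 0.10, MYH2 by 13.16 ± 0.08 and MYH1 by 13.13 ± 0.14. In kidney TNNC2 and MYH4 were each well above background on 3 of 16 arrays, MYH2 on 2, MYL1 on 5 and MYH1 on 9, so that the kidney side of these differences is largely background and they have no order among themselves. With the processed signal, scaled to its 75th percentile, the median of the list was 12.77. In GM MYH4 stayed between 18.60 and 18.89, and no kidney array reached more than 6.48. The fast troponin T, TNNT3, differed by 13.01 ± 0.07 and the essential light chain MYL1 by 12.52 ± 0.07. MYOT, a protein of the Z disc that anchors the thin filaments, was not well above background on any kidney array and was at least 2567-fold higher in GM (adjusted p = 4.11e-27). The Z disc genes MYOZ3 (12.42 ± 0.08) and MYOZ1 (12.39 ± 0.08) and the regulatory light chain MYLPF (12.23 ± 0.08) were also among the 10 with the largest fitted differences.

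Genes of slow fibres were also far higher in GM, but with a wider spread between pigs. MYH7, the slow myosin heavy chain, ran from 15.97 to 18.53 (median 17.79) in GM and from 6.03 to 6.99 in kidney, a difference of 11.22 ± 0.19. Desmin, DES, an intermediate filament gene shared with smooth muscle, differed by 4.28 ± 0.12, with kidney levels of 13.20 to 14.83. The smallest differences of the list were those of DMD, which links the cytoskeleton to the membrane (2.63 ± 0.09), and of FBXO32, a ubiquitin ligase of muscle breakdown (2.38 ± 0.12). 3 probes of TPM3, a slow tropomyosin gene that other cells also use, disagreed: the brightest was higher in GM (3.40) and the other 2 were higher in kidney (-1.31 and -1.05).

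Excitation and energy supply followed the contractile genes. Of 8 tested genes of excitation and calcium handling, 6 were higher in GM, led by RYR1, the calcium release channel (10.68 ± 0.15, well above background on 7 of 16 kidney arrays), SLN, a small inhibitor of the calcium pump (8.72 ± 0.10), and CACNG1, a subunit of the voltage sensor (8.57 ± 0.10). ATP2A2, the calcium pump of slow fibres and of most other cells, was the 1 gene of this list higher in kidney, from 8.75 to 10.01 in GM and from 10.86 to 12.05 in kidney (-2.07 ± 0.13, adjusted p = 3.62e-12). Of 13 genes listed for glycolysis, glycogen and creatine metabolism 12 were higher in GM, with a median of 5.65 over the 13. ENO3, the muscle enolase, ran from 16.38 to 17.94 in GM and from 5.04 to 6.47 in kidney (11.61 ± 0.12). AMPD1, the AMP deaminase of muscle, differed by 10.43 ± 0.09 and CKM, which regenerates ATP from creatine phosphate, by 10.07 ± 0.17. The gene not called was COX7A1, the muscle form of a subunit of cytochrome oxidase. It belongs to none of these 3 pathways and is counted again in the respiratory chain below. COX7A1 lay at 15.84 to 17.08 in GM and 15.90 to 16.74 in kidney (0.01 ± 0.09, adjusted p = 0.93). With either signal scaled to its 75th percentile it was called higher in GM (1.05 and 1.12).

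Regulators of the muscle lineage had a median difference of 3.38. Of 7 tested myogenic factors 5 were higher in GM: MEF2C by 5.19 ± 0.12, SMYD1 by at least 11.7-fold, MSTN by 3.50 ± 0.15, MYOD1 by 3.38 ± 0.13 and MEF2A by 1.22 ± 0.12. MYOG, the factor of terminal differentiation, was called higher in kidney. Its probe ran from 9.70 to 11.68 (median 11.02) in GM and from 11.38 to 12.98 (median 12.29) in kidney, so that the tissues overlapped (-1.31 ± 0.12, adjusted p = 2.02e-09). Over the 4 muscle lists together, 52 of 57 tested genes were higher in GM and 2 higher in kidney, against 16.9% and 19% of all probes. Among all 1653 named genes tested 404 were higher in GM and 360 in kidney.

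On the kidney side, the proximal tubule list stood out by number. Of its 22 tested genes 20 were higher in kidney, 1 was higher in GM and 1 was not called, with a median of -5.38. SLC34A1, the apical carrier that reclaims phosphate, ran from 15.00 to 16.38 (median 16.04) in kidney and from 4.97 to 6.38 (median 5.90) in GM, a difference of -10.05 ± 0.10 (adjusted p = 1.68e-25). SLC22A2, a basolateral carrier of organic cations, differed by -9.19 ± 0.11. Both were well above background on 1 of 16 GM arrays. Further, SLC7A9, which reclaims cystine with SLC3A1, was not well above background on any GM array and at least 127-fold higher in kidney. The brush border peptidases followed, with DPEP1 at least 106-fold higher and ANPEP at -6.60 ± 0.15. SLC26A6, an anion exchanger, was the 1 gene higher in GM (1.46 ± 0.18), with overlap between tissues. SLC22A7 was at 6.17 to 7.44 in GM and 6.40 to 7.72 in kidney (-0.05 ± 0.12, adjusted p = 0.702).

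Further along the nephron, 12 of 18 tested genes were higher in kidney, 1 higher in GM and 5 not called. FXYD2, which modulates the sodium pump, ran from 16.45 to 17.46 in kidney and from 6.00 to 7.52 in GM (-10.28 ± 0.10), and the pump subunit ATP1B1 differed by -2.59 ± 0.09. KLK1, a protease of the connecting tubule, was at least 369-fold higher in kidney. SLC12A1, the salt carrier of the thick ascending limb that loop diuretics block, was not well above background on any GM array and ran from 11.39 to 15.20 in kidney, at least 185-fold higher. The epithelial adhesion gene EPCAM differed by -8.78 ± 0.16 and was well above background on 3 GM arrays. AQP4, a water channel of the collecting duct and of the fast fibre membrane, went the other way, from 7.63 to 10.94 in GM and not well above background on any kidney array, at least 18.3-fold higher in GM. The 5 genes not called were AQP3 (0.83 ± 0.16), ATP2B1 (0.65), AVPR2 (0.43 ± 0.08), EGF (-0.22 ± 0.22) and SCNN1A (-0.32 ± 0.08). SCNN1A was not well above background on any GM array, so the GM side of its difference is background. WT1, of podocytes, was the only tested gene of the glomerulus list and differed by -2.36 ± 0.17.

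Transcription factors of the tubule and most metabolic genes of kidney were higher in kidney. All 5 tested kidney transcription factors were higher in kidney. HNF4A, of the proximal tubule, ran from 9.07 to 11.07 in kidney, was not well above background on any GM array and was at least 16.5-fold higher. GATA3, of the collecting duct, differed by -3.09 ± 0.10. Of 15 genes of kidney metabolism and hormones 12 were higher in kidney, among them DAO, which oxidises D-amino acids (at least 1145-fold, adjusted p = 1.38e-24), FBP1, an enzyme of gluconeogenesis (-7.66 ± 0.13), and DIO1, which activates thyroid hormone (at least 35.0-fold). EPO, the erythropoietin gene, overlapped between tissues, from 7.03 to 11.56 in kidney and 5.05 to 7.06 in GM, and was called higher in kidney (adjusted p = 1.09e-09). AKR1B1, the aldose reductase, and GHR, the growth hormone receptor, were higher in GM, by 2.25 ± 0.27 and 1.54 ± 0.12. STRA6, a vitamin A receptor (-10.46 ± 0.10), SLC44A4 (-9.22 ± 0.11), the cytochrome P450 CYP2C33 (-8.98 ± 0.19) and the antimicrobial peptide gene DEFB1 (-8.93 ± 0.23) were also among the genes with the largest differences. DEFB1 was well above background on all arrays of both tissues, SLC44A4 on 7 GM arrays, and STRA6 and CYP2C33 on 1 each. Over the kidney lists together, 48 of 59 tested genes were higher in kidney and 4 higher in GM, against 19% and 16.9% of all probes. Among all 1653 named genes tested 360 were higher in kidney and 404 in GM.

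**Figure D2:**
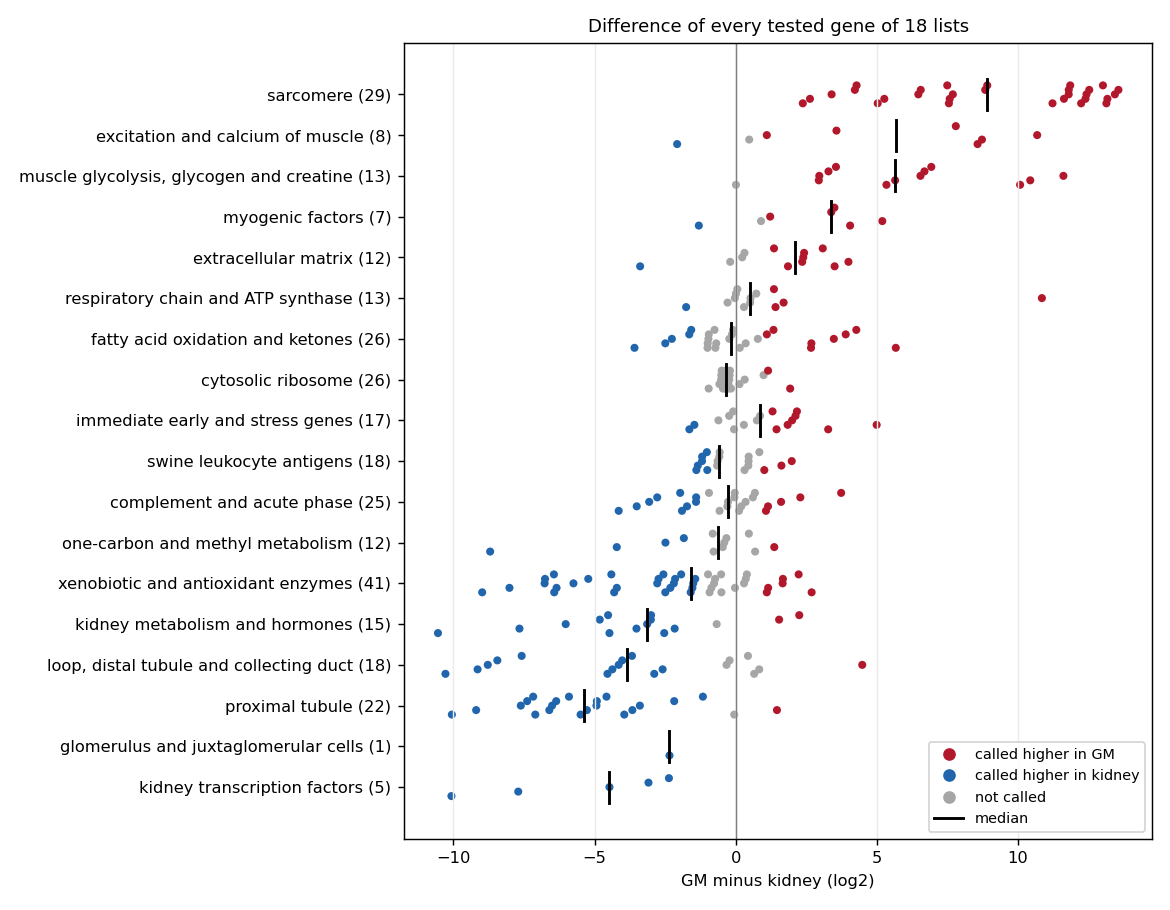
Difference between GM and kidney (x axis, log2) of every tested gene of 18 lists, with the number of genes in parentheses; each point is a gene, red where called higher in GM, blue where called higher in kidney and grey where not called, and black bars are medians. The 4 muscle lists lie to the right, with medians from 3.38 to 8.91, and the kidney lists to the left, with medians from -2.36 to -5.38.

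Genes of detoxification were mostly higher in kidney, 24 of 41, with 6 higher in GM, against 19% and 16.9% of all probes. The share higher in GM is near that of all probes. CYP2C33, CYP2C49 (-8.01 ± 0.37) and CYP4A21 (at least 82.9-fold) led them. CYP2C49 ran from 10.02 to 15.90 over the kidney arrays. The paraoxonase genes were split, PON1 higher in kidney (-6.44), and PON3 (2.69 ± 0.19) and PON2 (1.67 ± 0.31) higher in GM. MT1A, a metallothionein that binds zinc and cadmium, ran from 13.97 to 17.93 in kidney and from 8.10 to 12.09 in GM (-6.75 ± 0.37).

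After quantile normalization most genes of the respiratory chain, and 13 of 26 genes of fatty acid oxidation and ketone metabolism, were not called. Of 13 tested genes of the respiratory chain 4 were higher in GM and 1 in kidney, against 16.9% and 19% of all probes. The other 8 were not called. The median of the respiratory chain list was 0.51 after quantile normalization. It was 1.21 with the median signal and 1.33 with the processed signal scaled to the 75th percentile, so the size of its difference depends on the scaling. COX8H, the heart and muscle form of a cytochrome oxidase subunit, was not well above background on any kidney array and was at least 1713-fold higher in GM, whereas COX7A2 was higher in kidney (-1.76 ± 0.08). The complex I subunits NDUFC1 (1.70 ± 0.14) and NDUFB6 (1.41 ± 0.14) were higher in GM. Of the 26 genes of fatty acid oxidation and ketone metabolism 8 were higher in GM and 5 in kidney, and the share higher in kidney is near the 19% of all probes. The fatty acid receptor CD36 (4.27 ± 0.16) and the lipase LPL (3.90 ± 0.15) were higher in GM. Of the peroxisomal genes, catalase (CAT, -2.49 ± 0.12) and HSD17B4 (-1.57 ± 0.20) were higher in kidney. The median of this list was -0.18, and 0.27 after scaling either signal to its 75th percentile.

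Genes of one-carbon metabolism, the pathway that the F0 supplement feeds, were tested at 12 members. 4 were higher in kidney and 1 in GM, against 19% and 16.9% of all probes, and 7 were not called. FTCD, which channels one-carbon units from histidine into the folate pool, was not well above background on any GM array and at least 316-fold higher in kidney. CTH, which makes cysteine from cystathionine, ran from 11.58 to 14.38 in kidney and from 8.53 to 10.01 in GM (-4.21 ± 0.19). The folate receptor FOLR2 (-2.49 ± 0.17) and the glycine methyltransferase GNMT (-1.84 ± 0.15) were higher in kidney, and PEMT, which methylates phosphatidylethanolamine, was higher in GM (1.37 ± 0.11). DNMT1 (-0.46) and DNMT3A (0.69), which methylate DNA, were not called. For FOLR1 1 probe was called in each direction (1.71 and -1.01).

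Pairs were listed of a gene taken as muscle-type and a relative, not all of them tissue forms of 1 protein. Both genes were tested in 7 pairs, and most of the listed pairs could not be tested. In 3 of the 7 the gene taken as muscle-type was higher in GM while its relative was higher in kidney. MYL1 differed by 12.52 ± 0.07 and MYL6, the light chain of non-muscle myosin, by -2.05 ± 0.10. CPT1B, the muscle form of the enzyme that admits fatty acids to mitochondria, ran from 11.74 to 13.69 in GM and from 9.05 to 10.74 in kidney (2.68 ± 0.15), and CPT1A, the liver form, from 11.33 to 12.54 in GM and from 14.54 to 16.44 in kidney (-3.58 ± 0.10). The growth inhibitor MSTN differed by 3.50 ± 0.15 and INHBA, of the same family of ligands, by -1.31 ± 0.10. TPM2 (5.03 ± 0.13) and UCP3 (5.67 ± 0.47) were higher in GM, and their relatives TPM4 (-0.56 ± 0.16) and UCP2 (-0.75 ± 0.13) did not reach 2-fold. GOT1 (1.79 ± 0.21) and GOT2 (1.11 ± 0.09) were both higher in GM. COX7A1 did not differ by 2-fold while COX7A2 was higher in kidney.

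**Figure D3:**
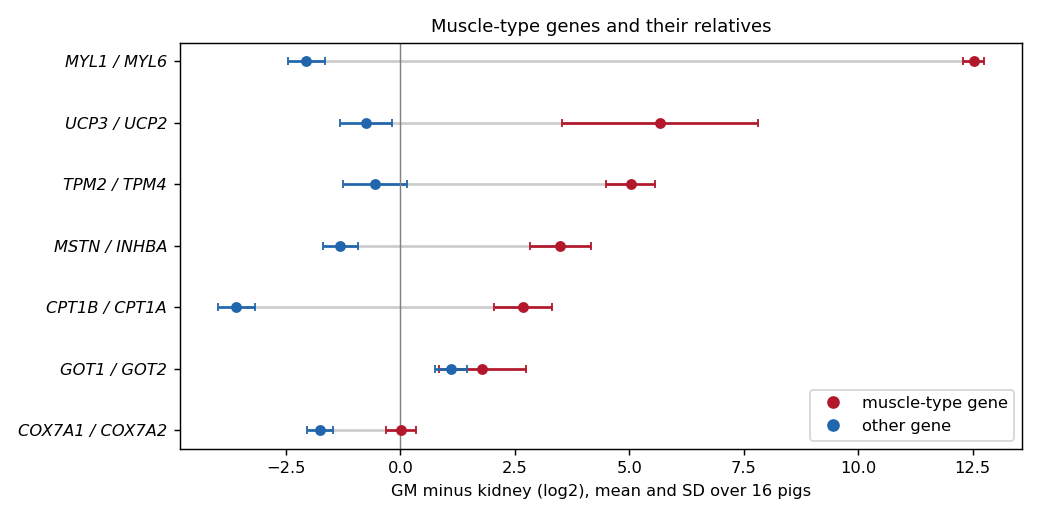
Difference between GM and kidney (x axis, log2) for 7 pairs of genes; red points are genes taken as muscle-type, blue points their relatives, and bars are 1 SD over the pigs. MYL1 and MYL6, MSTN and INHBA, and CPT1B and CPT1A lie on opposite sides of 0 and are called in opposite directions, whereas GOT1 and GOT2 both lie above 0.

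Ribosomal genes were mostly not called, and stress and immune genes were called in both directions. Of 26 genes of the cytosolic ribosome 24 were not called and 2 were higher in GM, RPLP0 (1.93 ± 0.20) and RPL10 (1.15 ± 0.09). The ribosomal median was -0.33 after quantile normalization but 0.94 when the same signals were scaled to the 75th percentile, so no direction can be given for the list. Of 17 immediate early and stress genes 8 were higher in GM and 2 in kidney, against 16.9% and 19% of all probes. ATF4, a factor of the amino acid response, ran from 14.67 to 15.46 in GM and from 9.56 to 10.57 in kidney (4.99 ± 0.10). TXNIP (2.17 ± 0.19) was higher in GM, and HMOX1, which degrades heme (-1.64 ± 0.20), and GADD45A (-1.46 ± 0.31) were higher in kidney. Of 7 class II genes of the swine leukocyte antigens 5 were higher in kidney and 0 in GM, against 19% and 16.9% of all probes. Among the 5 were SLA-DQB1 (-1.34 ± 0.12) and SLA-DRA (-1.19 ± 0.15), which lost their call under 2 and 3 of 38 alternatives. Of 11 genes of class I and peptide loading 7 were not called, 3 were higher in GM and 1 was higher in kidney. Those higher in GM included SLA-2 (1.62 ± 0.15) and the peptide transporter TAP1 (1.98 ± 0.13), and the 1 higher in kidney was SLA-6 (-1.39 ± 0.10). Of 25 complement and acute phase genes 9 were higher in kidney and 5 in GM, against 19% and 16.9% of all probes. The share higher in GM is near that of all probes. In kidney C5 (-4.14 ± 0.16), transferrin TF (-3.50 ± 0.21) and C7 (at least 5.81-fold) led, and in GM ITIH4 (3.74 ± 0.17). CRP, higher in GM by 2.29 ± 0.35, rested on 13 pairs because of marked spots.

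Of 12 extracellular matrix genes 8 were higher in GM, against 16.9% of all probes. COL5A2, a fibrillar collagen, had the largest difference (3.99 ± 0.16). TIMP2, an inhibitor of matrix proteases, ran from 11.17 to 11.79 in GM and from 7.60 to 9.10 in kidney, and COL5A1 (3.08 ± 0.14) came next. SPP1, osteopontin, was the 1 gene of the list higher in kidney (-3.38 ± 0.39), with overlap between tissues.

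Of 43 tested markers of other cell types 13 were higher in GM and 7 in kidney, against 16.9% and 19% of all probes. The other 23 were not called, and the share higher in kidney is near that of all probes. Of 9 tested adipocyte markers 7 were higher in GM, led by ADIPOQ, which ran from 9.59 to 11.98 in GM and from 5.65 to 6.27 in kidney (4.66 ± 0.15), FABP4 (3.48 ± 0.16) and CIDEC (3.13 ± 0.18). LEP (-0.91 ± 0.13) and RETN (-0.08 ± 0.21) were not called. The summed signal of the 9 ran from 15.39 to 17.00 (log2) in GM and from 12.23 to 13.22 in kidney, and no marker was below background on every array of a tissue. FABP4 and PPARG also belong to the list of fatty acid oxidation, and the part of adipocytes in the lipid results above was not tested. Of 7 hepatocyte markers 4 were higher in kidney, APOC3 (-5.65 ± 0.34), TTR (-5.64 ± 0.48), F2 (-5.36 ± 0.15) and AMBP (-1.60 ± 0.28), with a summed signal of 14.24 to 16.56 in kidney and 11.38 to 14.22 in GM. Both tested smooth muscle markers were higher in GM, CNN1 (3.98 ± 0.23) and DES (4.28). DES is the desmin gene given above among the muscle genes, so it does not mark smooth muscle alone here. The only tested fibroblast marker, DCN (1.85 ± 0.13), was also higher in GM. So were 1 of 2 nerve markers, MBP (2.85 ± 0.17), and 1 of 4 adrenal markers, PNMT (2.19 ± 0.16), the others not being called. Endothelial markers were split: of 4, CDH5 (1.27 ± 0.20) was higher in GM, PECAM1 by its brightest probe (-1.12) higher in kidney, and 2 were not called. AIF1 (-2.37 ± 0.12) was the 1 of 7 macrophage and myeloid markers called, and GZMB, of cytotoxic lymphocytes (-1.26 ± 0.14), the 1 of 5 T and NK cell markers, both higher in kidney. Of PECAM1 1 probe was called in each direction (1.81 and -1.12).

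Within a tissue, pigs differed most in a few genes. The SD over the 16 pigs had a median of 0.31 over the 17448 probes well above background on every GM array, and of 0.35 over 23557 such probes in kidney. Among named genes 23 of 1112 in GM and 38 of 1326 in kidney had an SD above 1. The values below are a description, and the relations between genes were chosen after the values were seen.

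Among named genes the widest spread in GM was that of NR4A3, an immediate early gene, which ran from 8.21 to 15.01 (SD 1.95) with a female of each line at 14.97 and 15.01 and all others at 11.81 or lower, while kidney stayed between 6.98 and 8.37. SPP1 (SD 1.58), albumin (ALB, SD 1.56), an immunoglobulin heavy chain (LOC396781, SD 1.39) and PPARGC1A, a regulator of mitochondrial genes (SD 1.38), came next. In kidney the widest among them was SAL1, a salivary lipocalin, which ran from 5.61 to 16.65 (SD 4.27) over the pigs and from 5.45 to 8.98 in GM. ALB ran from 5.50 to 15.62 in kidney (SD 2.89) and from 8.16 to 13.72 in GM, and its difference between tissues was not called (1.17 ± 0.64, adjusted p = 0.104). That difference ran from 0.70 to 1.499 when single pigs were left out, and it was called in 4 of 37 alternatives, 2 of which left out 1 F2 E pig, a barrow or a female. ABO, whose enzyme makes the blood group antigen, lay between 7.60 and 8.21 on all GM arrays. In kidney 5 pigs of both lines and sexes lay between 7.51 and 8.64 and the other 11 between 11.75 and 14.15. UCP3 ran from 6.51 to 13.41 in kidney (SD 2.34) and from 15.06 to 16.86 in GM (SD 0.55), PON3 from 7.43 to 12.42 in kidney (SD 1.93), and haptoglobin (HP) from 5.91 to 12.48 (SD 1.86).

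**Figure D4:**
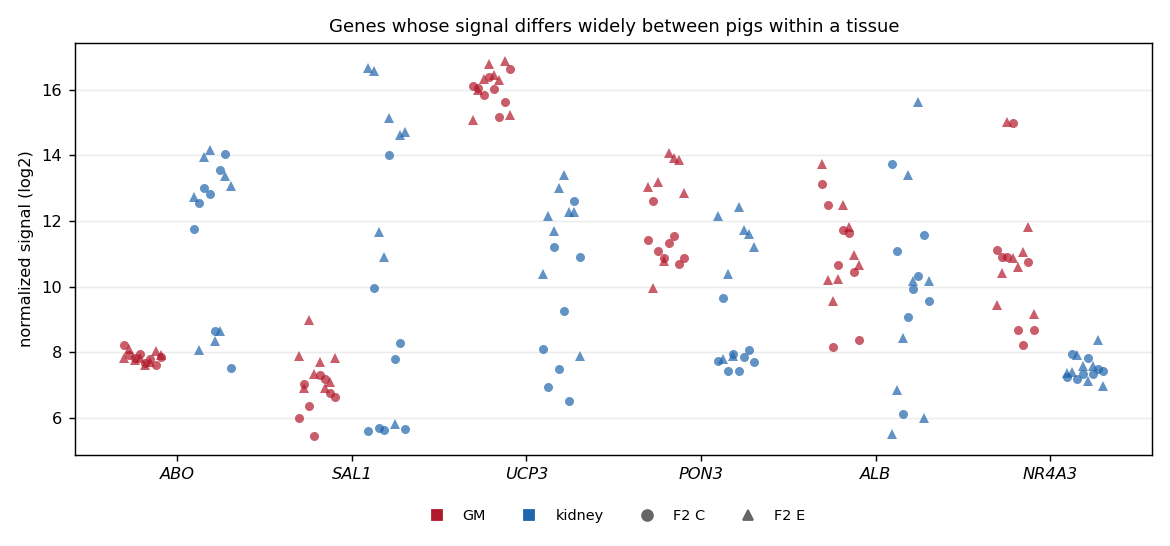
Normalized log2 signal (y axis) of 6 genes in each pig, GM in red and kidney in blue, F2 C pigs as circles and F2 E pigs as triangles. ABO falls into a low and a high set of kidneys with GM low throughout, SAL1 in kidney spans 5.61 to 16.65, and NR4A3 in GM has 2 pigs at 14.97 and 15.01.

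Slow fibre genes moved together across the GM arrays. Over the 16 pigs MYH7, MYL2, TNNI1, TNNT1 and MYOZ2 had Pearson correlations between 0.83 and 0.98 in all 10 pairs, and between 0.94 and 0.99 after the means of the slide sets were removed. For MYH7 with TNNI1 r was 0.96 and Spearman's rho 0.96 (permutation p = 1e-05 for each, the smallest the permutations can give; 3.9e-05 and 4.87e-05 after adjustment over 39 relations), and r was 0.92 without the 2 pigs farthest from the median of MYH7. TNNI1, the slow troponin I, ran from 11.54 to 16.66, both in F2 C females, and MYL2 from 14.42 to 18.81 in the same pigs. TNNT3, of fast fibres, ran the other way with all 5 slow genes (MYH7 r = -0.71, rho = -0.77, adjusted permutation p = 0.00384 and 0.0017), within a range of 18.84 to 19.11 near the top of the scale. Without the 2 farthest pigs r was -0.66 for MYH7 and -0.67 for TNNT1, and weaker for MYL2 (-0.57), TNNI1 (-0.49) and MYOZ2 (-0.46). MYH4 and MYH1 gave no relation past the threshold with any of the 5.

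In kidney, SLC12A1 of the thick ascending limb ran against 3 of 6 proximal tubule genes. With AQP1, the water channel of the proximal tubule and thin limb, r was -0.90 and rho -0.90 (adjusted permutation p = 3.9e-05 and 4.87e-05), -0.85 without the 2 pigs farthest from the median of AQP1 and -0.90 within slide sets. With SLC34A1 r was -0.83 and rho -0.77 (adjusted permutation p = 8.36e-05 and 0.00185), and with SLC22A6, a carrier of organic anions, r was -0.77 and rho -0.71 (adjusted permutation p = 0.000951 and 0.00556). SLC22A8 (r = -0.45), DAO (-0.13) and SLC22A2 (0.10) gave no relation past the threshold. Of the same 6 genes 1 was related to CALB1, a calcium-binding protein of the distal tubule, in the positive direction: DAO with r = 0.82 and rho = 0.72 (adjusted permutation p = 0.000286 and 0.00501), and r = 0.73 without the 2 farthest pigs. The 2 pigs whose kidney arrays stood apart had the lowest SLC12A1 and the highest AQP1, and the part of signal strength in these relations was not tested beyond leaving pigs out. ALB and HP moved together in GM (r = 0.96, rho = 0.97) and in kidney (r = 0.88, rho = 0.76).

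**Figure D5:**
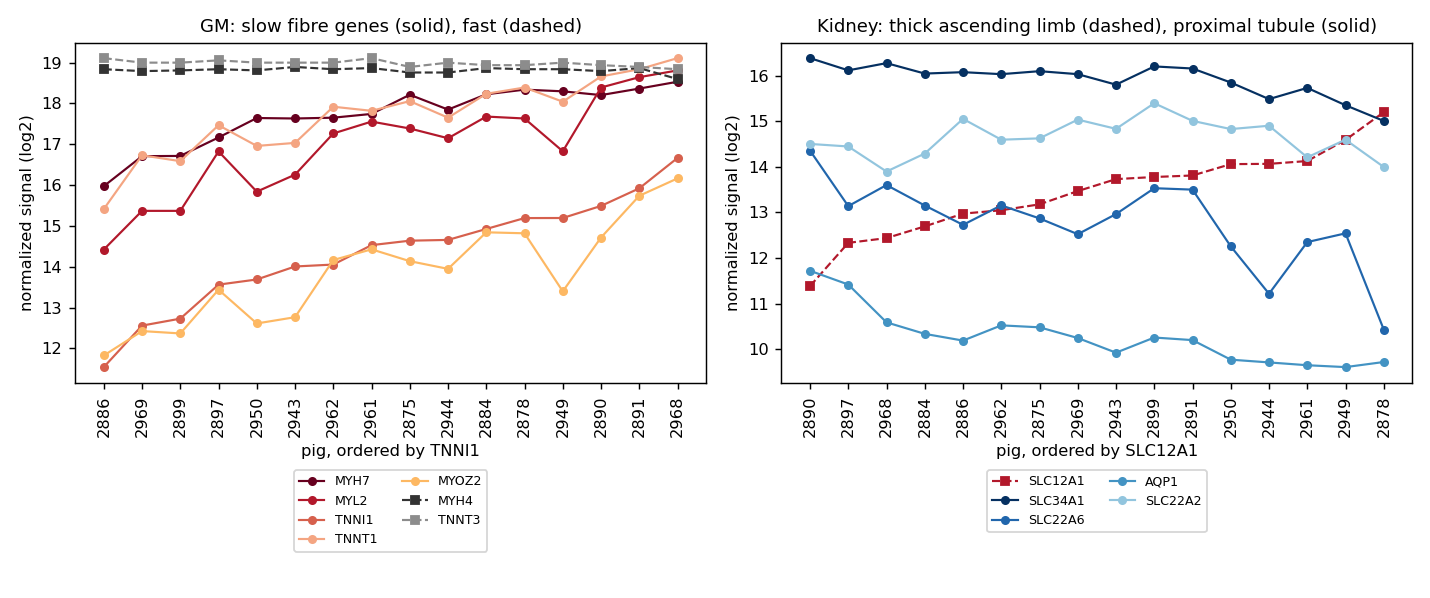
Normalized log2 signal (y axis) by pig (x axis), in GM ordered by TNNI1 and in kidney ordered by SLC12A1; lines join the values of a gene and levels are not comparable between genes. The 5 slow fibre genes climb together from left to right while MYH4 stays between 18.60 and 18.89, and in kidney SLC34A1, SLC22A6 and AQP1 decline as SLC12A1 rises from 11.39 to 15.20.

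The level of most genes in GM was only weakly related to the level in the same pig's kidney. Over 1490 named probes well above background on all 32 arrays, the median correlation across pigs was 0.04, and 15 probes passed an adjusted permutation p of 0.05 by Pearson's r, 13 of them positive. By Spearman's rho 1 probe passed, that of TRAF6. TRAF6, an adaptor of innate immune signalling, ran from 9.16 to 11.67 in kidney with r = 0.90 and rho = 0.89 to its level in GM (adjusted permutation p = 0.00993 and 0.0447), and r = 0.79 without the 2 farthest pigs. For PON3 r was 0.93 and rho 0.73 (adjusted permutation p = 0.00993 and 0.128). OXCT1, of ketone use, had r = 0.87 and did not differ between tissues by 2-fold (-0.09).

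The tissue difference depended on line at 5 of 32674 probes (0.0153%) and on sex at 7 of 32683 (0.0214%), none of which carries a RefSeq symbol. Each slide held pigs of 1 line, so that line and slide cannot be told apart, and with slide as a random block 1 of the 5 probes for line and 7 for sex were called. The count for line changed to 17 without the 2 pigs whose kidney arrays stood apart and to 3 without 1 F2 E barrow, and the count for sex was 4 without any 1 of 8 of the pigs. The probe that the study names TBR1, a brain transcription factor, had a GM minus kidney difference of 1.22 to 3.63 (median 2.49) in F2 E pigs and of -1.16 to 1.27 (median 0.05) in F2 C pigs. The lines differed by 2.36 ± 0.34 (limma adjusted p = 0.0121, and 0.638 with slide as a random block), with mean levels of 8.48 and 6.02 in GM and kidney of F2 E pigs and of 5.86 and 5.76 in F2 C pigs. In F2 C pigs the probe was well above background on 2 of 8 GM arrays. The study's real-time PCR of TBR1 in GM of the same pigs did not reproduce its array difference between the lines. The fold by PCR had the opposite sign. Among named genes TFRC, the transferrin receptor (F2 E minus F2 C, -1.92 ± 0.39, adjusted p = 0.173), IYD, which recycles iodide (-1.41 ± 0.29, adjusted p = 0.173), and AMY2, an amylase (1.01 ± 0.21, adjusted p = 0.185), had the smallest p and were not called. For sex these were APOC3 (barrows minus females, 2.17 ± 0.50, adjusted p = 0.981), GSTA1 (1.91 ± 0.61, adjusted p = 1.00) and FCER1G (0.45 ± 0.15, adjusted p = 1.00).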

How the data were processed

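RNA of GM and kidney of 16 F2 pigs was measured on 1-colour Agilent porcine arrays. The deposited values were spot intensities written by Feature Extraction 10.5.1.1. Control spots were left out, and the median signals of the 32 arrays were quantile-normalized on the linear scale. Spots marked as non-uniform or population outliers were then set to missing. Signals were put on the log2 scale and spots of 1 probe were averaged. A probe was present in a tissue with a signal above 25 and well above background on at least 50% of its arrays, and was tested when present in either tissue.

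limma 3.58.1 in R 4.3.3 was fitted with pig as a block. The pairing comes from the same animal: the labels give both arrays of a pig 1 number. Deviations from the tissue means correlated between the GM and kidney of a pig from -0.26 to 0.47 (median 0.10). Line and sex were tested on the difference of each pig. Where no array of a tissue measured a gene well above background, the fold was given as a lower bound, with the dimmest well-measured probe of each array in place of that tissue's signal if it was higher. Relations across pigs were tested with 100000 permutations, two-sided. A two-sided sign-flip test of the paired differences could give no p below 3.05e-05. The number of arrays limits the precision. Names came from RefSeq accessions. Deposited tables of the authors' line comparisons (ratios, p-values) were not used.

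The members and gene lists were chosen with earlier results of these data known. Named genes were the 10 with the largest differences in each direction, up to 3 called genes per list and direction, both genes of each isoform pair, the 5 with the largest spread per tissue, and those from the tests on line and sex; other genes were named after their values were seen. For a list, 1 probe per gene was used, the present probe with the highest mean signal. The fits were tested on simulated data with 32089 probes: of probes changed by 1.5 on the log2 scale 98% were recovered with 0 false calls, and for a line effect of 2 on the log2 scale 92.5% with 13 false calls. Simulated arrays were drawn independently, with no correlation within pigs or slides. The measured correlation within a slide set was 0.23 in the line test, so the simulation does not give the error rate of that test. Tables and figures were made with Python 3.11.15, pandas 2.3.3, numpy 2.4.6 and matplotlib 3.10.9. Alternatives covered scaling, background, filters, marked spots, slides, the block, the test, and leaving out pigs. Some results are not reported here.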

Additional observations from a re-analysis of the deposited data

Results flagged for a closer look

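The GM minus kidney difference depended on line at 5 probes, in limma on the differences of the pigs. F2 E minus F2 C was -4.03 for A_72_P087611, on 8 pairs, -4.36 for A_72_P163556, on 7 pairs, 2.36 for A_72_P040316, which the study names TBR1, -1.05 for A_72_P183831 and -1.90 for A_72_P021531, on 13 pairs. The missing pairs are spots marked as outliers and left out. The study's real-time PCR did not reproduce its array difference of TBR1 in GM. Each slide held 1 line, and with slide as a random block A_72_P087611 alone was called (adjusted p = 0.00490 in limma).

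It depended on sex at 7 probes. Barrows minus females was 2.27 for A_72_P359923, 2.50 for A_72_P037276, 2.43 for A_72_P348488, 1.88 for A_72_P338498, 1.17 for A_72_P282584, 1.18 for A_72_P057546 and 1.28 for A_72_P222607. A_72_P359923 was well above background on all arrays of both sexes. For A_72_P282584 no array of females was well above background (mean levels 4.90 in GM and 5.03 in kidney, against 11.60 and 10.56 in barrows), and for A_72_P057546 and A_72_P222607 no array of barrows, so that the tissue difference was not measured in that sex. A_72_P348488 was well above background on 1 GM and 0 kidney arrays of barrows, and in GM of females A_72_P037276 on 0 arrays and A_72_P338498 on 1. A single barrow stood apart by Dixon's test at A_72_P037276 (4.34) and at A_72_P348488 (2.27), which chance gives in about 1 of 20 groups.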

How the results depend on the processing

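The calls of GM against kidney were paired by pig. Without the block they were 5532 higher in GM and 6204 higher in kidney, and the count for line was 11 in place of 5; the block changed no other count by more than 1.5 times. Leaving out 1 pig at a time gave 5465 to 5648 probes higher in GM, 6130 to 6307 higher in kidney, 51 to 52 muscle genes, 48 kidney genes, and 3 opposite pairs. The count for line ran from 3 to 7 and that for sex from 4 to 6. With the median signal scaled to the 75th percentile 8582 probes were higher in GM and 2 depended on line. With the processed signal scaled that way 1 depended on line, and the sarcomere median was 12.77. Restricting the test to probes well above background on all 32 arrays left 3923 probes higher in GM and 3164 in kidney, a turned balance, 27 muscle genes, 18 kidney genes, 1 opposite pair, 3 probes for line and 1 for sex, since fewer genes were tested. Requiring all 16 arrays of a tissue gave 2 for line and 2 for sex, keeping marked spots 2 for line, and slide as a random block 1 for line. The cause of the other changes was not tested. The planned background correction on the mean signal was not run; one on the median signal, chosen after seeing the data, gave 4409 and 4787 calls. Also chosen after seeing the data, leaving out the 2 pigs whose kidney arrays stood apart gave 5420 and 6102 calls and 17 probes for line. Of 115 named genes called, 94 kept their call in each alternative run for them (38 for 45 genes, fewer for 49, which dropped out under a stricter filter), 21 lost it under at least 1, and 0 reversed. Of 6 named genes not called, 4 were called under at least 1: ALB under 4, COX7A1 and UCP2 under 2 each and TPM4 under 1. COX7A1 changed sign in slide set 1 (-0.018), slide set 2 (-0.26), F2 E pigs (-0.027), females (-0.073) and when single pigs were left out (-0.029 to 0.054). FCER1G was 0.051 in barrows alone, and the sex difference of probe A_72_P282584 was -0.56 with the processed signal. Signal over background limits genes near background to lower bounds.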

Other observations

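Of 1310 tested named genes outside the lists, 294 were called higher in GM, 252 higher in kidney and 764 in neither direction. The shares are near those of all 1653 named genes tested (404, 360 and 889). Of all probes 16.9% and 19% were called higher in GM and in kidney. The genes below were named after their values were seen. In GM the largest differences were those of CA3, a carbonic anhydrase of muscle (10.30), PDLIM3 (9.85), MYOC (9.73), ABRA (at least 625-fold), PFKFB1, which sets the level of a regulator of glycolysis (at least 286-fold), and SRPK3, a kinase of muscle (7.89). In kidney, beside STRA6, SLC44A4 and DEFB1, they were those of SLC5A11, a carrier of inositol (at least 249.7-fold), XPNPEP2, a membrane aminopeptidase (-7.95), and WFDC2 (-7.64). Of 8 genes with probes called in opposite directions, SLC5A10 had the widest split (-6.70 and 3.31).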
